A study of Mus musculus with 18 samples.

Results

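The 9 chemokine receptors that direct T cells to inflamed or barrier tissue were followed across sorted regulatory T cells (TR), namely Ccr1, Ccr2, Ccr3, Ccr4, Ccr6, Ccr8, Cxcr3, Cxcr6 and Gpr15. They were taken by name, and all 9 of 9 were found among the 14011 genes of the authors' normalized table and the 37991 genes of their count table. Id3- effector TR (eTR), Id3+ eTR and Id3+ central TR (cTR) were sorted from peripheral lymph node and spleen of 3 C57BL/6 littermates, mice 84, 86 and 87. Every mouse carried the Id3-GFP and the Foxp3-mRFP reporter, so no group lacked either allele, and no treatment, age or sex is given. CD4 microbeads preceded the sort, in which Id3+ eTR were CD62L-low CD44-high and Id3+ cTR CD62L-high CD44-low, while the label of Id3- eTR names no such gate. Each of the 18 libraries held RNA of 500 cells, and each of the 6 groups had 3 libraries from separate mice. Id3 was read in the sort as a reporter signal, so the populations are reporter classes of cells that share their mouse, and the comparisons ask how receptor transcripts differ between these classes and between the tissues.

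Chemokine receptors are seven-helix proteins that couple to Gi-type G proteins and steer cell migration toward chemokines presented by tissue cells. Naive-like and central T cells, central TR included, circulate through lymphoid organs with Ccr7, while effector TR acquire receptors that guide them into skin, gut, lung and inflamed sites. Id3 is an inhibitor of E proteins, transcription factors that bind the E-box motif in DNA.

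The promoters of 4 members are shown because their genes differ in pattern below: Cxcr6 and Ccr2 were nearly restricted to Id3- eTR, while Cxcr3 and Ccr8 were also high in Id3+ eTR. Each run covers 300 bases, 250 before and 50 after the annotated start, in RefSeq sequence of build GRCm38.p6, written 5′ to 3′ on the gene's strand. Capitals mark each E-box, spelled CANNTG, which reads the same on both strands. The Cxcr6 promoter is at chr9:123806227-123806526 (plus strand), that of Ccr2 at chr9:124101933-124102232 (plus), that of Cxcr3 at chrX:101734098-101734397 (minus) and that of Ccr8 at chr9:120091883-120092182 (plus).
Cxcr6: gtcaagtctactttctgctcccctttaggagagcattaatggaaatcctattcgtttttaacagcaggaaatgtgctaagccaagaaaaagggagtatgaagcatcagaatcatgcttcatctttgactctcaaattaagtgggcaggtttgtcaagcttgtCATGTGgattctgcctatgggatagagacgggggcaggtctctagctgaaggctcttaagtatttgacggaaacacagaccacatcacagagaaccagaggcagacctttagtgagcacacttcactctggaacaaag
Ccr2: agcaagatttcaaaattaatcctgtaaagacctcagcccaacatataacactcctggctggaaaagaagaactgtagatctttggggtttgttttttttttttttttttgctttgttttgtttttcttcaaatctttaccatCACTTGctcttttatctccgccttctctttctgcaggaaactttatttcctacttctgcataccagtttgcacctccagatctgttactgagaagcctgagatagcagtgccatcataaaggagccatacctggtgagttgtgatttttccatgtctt
Cxcr3: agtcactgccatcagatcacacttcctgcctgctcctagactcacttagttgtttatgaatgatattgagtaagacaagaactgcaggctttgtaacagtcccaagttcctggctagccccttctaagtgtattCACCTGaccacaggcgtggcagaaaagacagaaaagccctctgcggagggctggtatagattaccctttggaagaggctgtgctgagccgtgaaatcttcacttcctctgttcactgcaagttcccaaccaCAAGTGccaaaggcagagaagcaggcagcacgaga
Ccr8: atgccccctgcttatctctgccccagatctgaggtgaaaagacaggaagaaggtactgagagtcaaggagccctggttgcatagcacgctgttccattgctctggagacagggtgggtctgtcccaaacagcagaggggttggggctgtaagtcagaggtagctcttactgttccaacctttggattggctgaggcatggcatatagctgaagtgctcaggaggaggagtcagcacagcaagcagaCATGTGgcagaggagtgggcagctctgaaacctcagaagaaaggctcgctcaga
All 9 members matched a RefSeq promoter, and an E-box stood in the promoters of 9 of 9, where 72.3% of all 32851 promoters of that length hold one. The T-box core GTGTGA, searched on both strands, stood in 2 of 9 members (Ccr1 and Cxcr3) and in 14.5% of all promoters. The ROR half-site AGGTCA stood in 1 of 9 (Ccr6) and in 16.3% of all promoters. RUNX core TGTGGT stood in 5 of 9 and 16.8%, AP-1 TGANTCA in 3 of 9 and 7.81%, and AHR core GCGTG in 3 of 9 and 32.4%. These are matches of letters, with no measure of binding, and a site of one motif that shares bases with a site of another was counted for both.

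The libraries held between 1600782 and 3153325 counts over 13701 to 15045 genes, and mice 84 and 87 gave the least counts in spleen Id3+ cTR. The library of spleen Id3+ eTR from mouse 84 stood apart from its partners, at 22.3 times the counting variance where other pairs reached 4.44 to 8.02, and results were also computed without these 3 spleen libraries. Foxp3 averaged 285, 259 and 266 CPM (counts scaled to library size) in lymph node Id3- eTR, Id3+ eTR and Id3+ cTR and 270, 290 and 288 CPM in the same spleen populations. The 7 TR markers (Foxp3, Il2ra, Ctla4, Ikzf2, Cd3e, Cd4 and Tnfrsf18) summed to between 2670 and 3940 CPM in all 18 libraries, with none at 0. Differences were tested with edgeR's quasi-likelihood test over 12445 genes, and a gene was called at a Benjamini-Hochberg adjusted p under 0.05. All 9 members passed the filter on low counts, 2 of them (Ccr1 and Ccr2) only through the Id3- eTR libraries. P-values measure the spread between mice. CPM in bulk RNA cannot tell fewer expressing cells from less RNA per cell.

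All 9 receptors were higher in Id3- eTR than in Id3+ cTR in both tissues, and their summed level was highest there and lowest in Id3+ cTR. The sum over the 9 members was 2020 ± 77.1 CPM in Id3- eTR, 642 ± 33.2 CPM in Id3+ eTR and 55.7 ± 21.8 CPM in Id3+ cTR of lymph node (SD, n = 3 each). In spleen it was 1680 ± 86.2 CPM in Id3- eTR, 377 ± 50.5 CPM in Id3+ eTR and 55.1 ± 11 CPM in Id3+ cTR. Libraries of the 3 populations did not overlap in this sum in either tissue. Between Id3- eTR and Id3+ cTR the test called 9 of 9 members higher in lymph node, where 8.26% of all genes tested were higher, and 9 of 9 in spleen, where 7.17% were. Between Id3+ eTR and Id3+ cTR it called 6 of 9 higher in lymph node (4.20% of all genes) and 5 of 9 in spleen (2.93%). Id3- eTR exceeded Id3+ eTR in 6 of 9 members in lymph node (1.45% of all genes) and 7 of 9 in spleen (1.53%). The pairs of populations share libraries, so these counts are not independent of one another. Ccr1 and Ccr2 are among the members counted, although they passed the filter only through the Id3- eTR libraries. Members were also chosen with earlier results of these data known, so the shares over all genes are given as a description.

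The median member log2 difference of Id3- eTR from Id3+ cTR was 6.02 in lymph node, against 0.0040 over all genes, and 6.19 in spleen, against 0.0023. With genes of 3 or fewer counts in a group set to their bound or counted ratio, these medians were 6.02 in lymph node and 5.34 in spleen. Of Id3+ eTR from Id3+ cTR the median was 3.42 in lymph node (3.69 over the 7 members with a fold) and 1.93 in spleen (2.02 over 8). Of Id3- eTR from Id3+ eTR it was 1.93 in lymph node and 2.28 in spleen, by either computation.

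**Figure D1:**
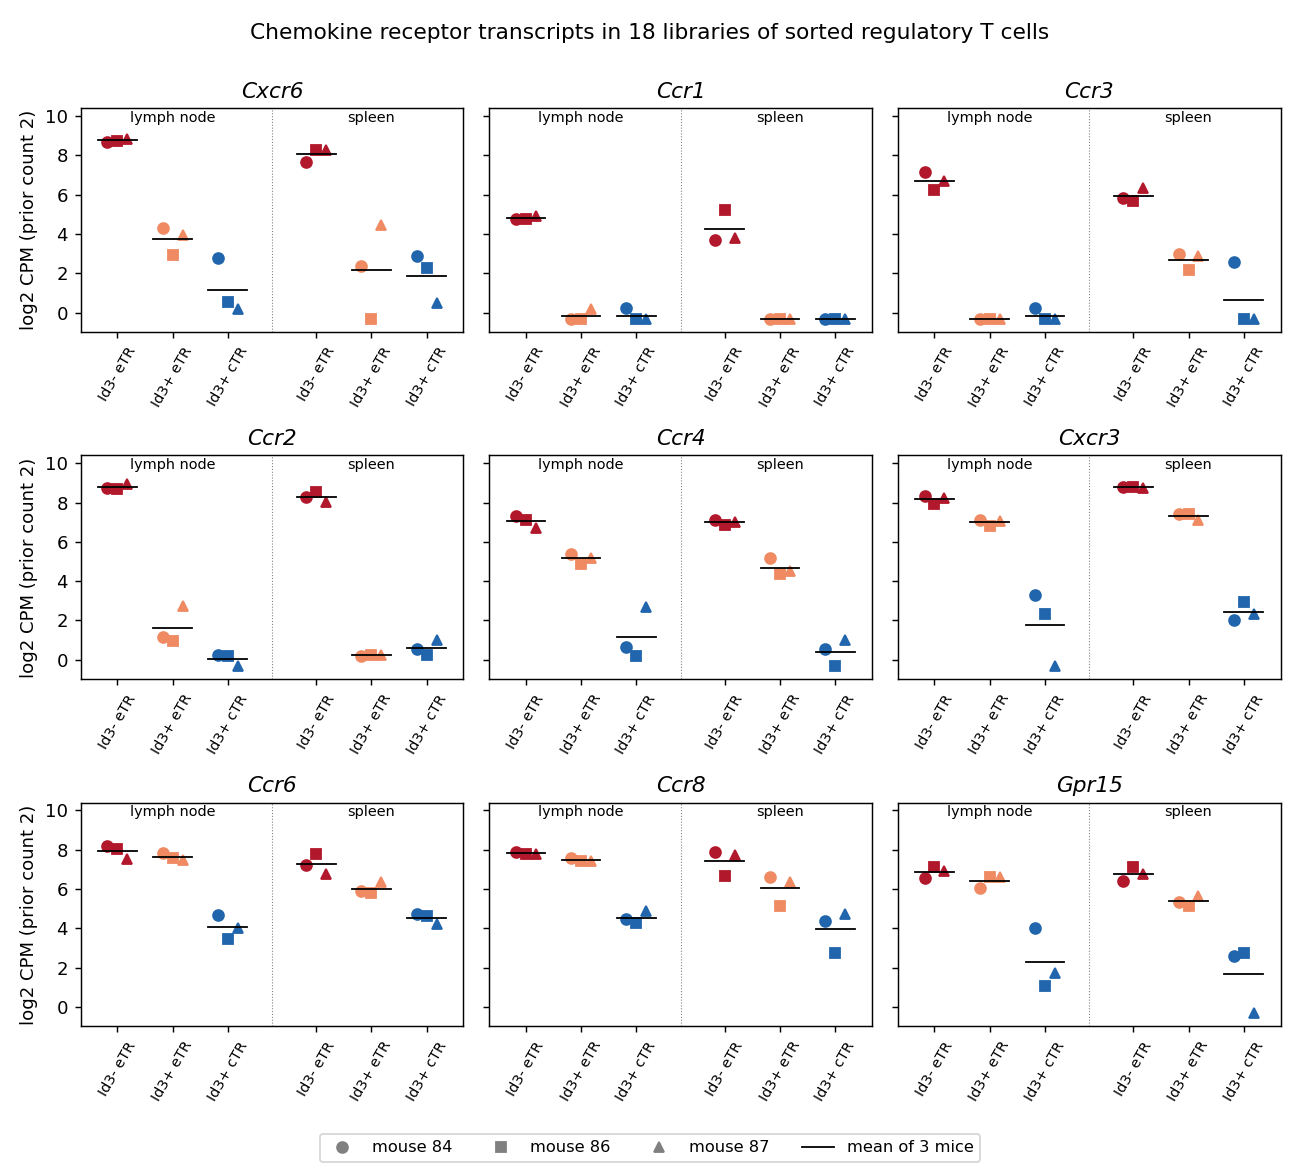
Log2 CPM (prior count 2) of each of the 9 receptors, 1 point per library and a line at the mean of the 3 mice, by population in lymph node and spleen. Ccr1, Ccr2, Ccr3 and Cxcr6 lie far lower in every Id3+ library than in any Id3- eTR library, whereas Ccr6, Ccr8, Cxcr3 and Gpr15 of Id3+ eTR all lie above the Id3+ cTR libraries of the same tissue.

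The inflammatory receptors Ccr1, Ccr2 and Ccr3 were transcripts of Id3- eTR, with few or no counts in Id3+ cells. Ccr2 is the receptor for Ccl2 that brings monocytes and activated T cells to inflamed tissue. In Id3- eTR of mice 84, 86 and 87, in that order here and below, Ccr2 stood at 431, 415 and 499 CPM in lymph node and 307, 375 and 257 CPM in spleen. Id3+ eTR of lymph node held 3, 3 and 17 counts of Ccr2 (1.43, 1.16 and 5.89 CPM), and those of spleen 1, 1 and 1. The library of mouse 87 carried most of the counts seen in lymph node Id3+ eTR, and no Id3+ library came near an Id3- one. Lymph node Id3+ cTR held 1, 1 and 0 counts of Ccr2, and spleen Id3+ cTR 1, 1 and 2, and Id3- eTR exceeded Id3+ cTR in both (adjusted p = 2.30e-10 in lymph node and 9.06e-10 in spleen).

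Id3- eTR exceeded Id3+ eTR in Ccr2 by a log2 difference of 7.20 ± 0.32 in lymph node (SE, adjusted p = 1.13e-09), and by 8.39 without the Id3+ eTR library of mouse 87. In spleen the CPM ratio of these populations was 820 (95% counting interval 280 to 3980, adjusted p = 7.62e-10). Ccr2 in Id3+ eTR was 12.9 times its level in Id3+ cTR in lymph node (3.18 to 113, adjusted p = 0.014), a call lost without Id3+ eTR of mouse 87 (ratio 5.44, adjusted p = 0.225), without Id3+ cTR of mouse 87 (0.066) and with limma-voom (0.334). In spleen the same pair was not called (adjusted p = 0.722), at 3 against 4 counts. Counting intervals and the lower bounds used below, which set 3 counts over a group in place of 0, cover counting error only.

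Ccr1, which binds Ccl3, Ccl5 and related chemokines on myeloid and T cells, was low even in Id3- eTR. It stood at 26.7, 26.3 and 29.9 CPM in lymph node Id3- eTR and 12.2, 36.7 and 13.2 CPM in spleen Id3- eTR. Id3+ eTR held 0, 0 and 1 counts in lymph node and 0 in all 3 spleen libraries. Id3+ cTR held 1, 0 and 0 counts in lymph node and again 0 in all 3 spleen libraries. The Id3- libraries alone carried Ccr1 beyond single counts. In lymph node Ccr1 was 210-fold higher in Id3- eTR than in Id3+ eTR (37.2 to 8320, adjusted p = 0.000869) and 235-fold higher than in Id3+ cTR (41.7 to 9320, adjusted p = 0.000174). Each of these ratios rests on 1 count, and without mouse 86 in the Id3+ group they were 138 and 151. In spleen it was at least 51.5-fold higher than in Id3+ eTR (adjusted p = 0.000756) and at least 36.4-fold higher than in Id3+ cTR (adjusted p = 0.000321).

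Ccr3, the eotaxin receptor of eosinophils and some helper T cells, was counted in spleen Id3+ eTR and not in those of lymph node. It stood at 140.3, 74.2 and 102.3 CPM in lymph node Id3- eTR and 56.8, 49.9 and 79.6 CPM in spleen Id3- eTR. Id3+ eTR held 0 counts in all 3 lymph node libraries and 21, 9 and 17 counts (7.04, 3.66 and 6.61 CPM) in spleen. Id3+ cTR held 1, 0 and 0 counts in lymph node and 8, 0 and 0 in spleen, so the spleen Id3+ cTR signal came from mouse 84 alone. In lymph node Ccr3 was at least 264-fold higher in Id3- eTR than in Id3+ eTR (adjusted p = 4.51e-05) and 888-fold higher than in Id3+ cTR (159 to 35100, adjusted p = 1.07e-05), or 572-fold without Id3+ cTR of mouse 86. In spleen the log2 difference of Id3- eTR was 3.41 ± 0.62 from Id3+ eTR (adjusted p = 0.00552) and 5.34 ± 0.76 from Id3+ cTR (adjusted p = 0.00024). The last value was 4.60 without Id3+ cTR of mouse 86, and without that of mouse 84 the group held 0 counts of Ccr3. Spleen Id3+ eTR and Id3+ cTR differed by 1.93 ± 0.84 (adjusted p = 0.217), and by a called difference (adjusted p = 0.00893) without Id3+ cTR of mouse 84.

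Genes of myeloid cells, which also carry Ccr1 and Ccr2, moved in part with these receptors. Of the 12-gene myeloid and dendritic list, 6 genes were tested. Between Id3- eTR and Id3+ cTR, 4 of 6 were called higher in lymph node (Fcer1g, Tyrobp, Spi1 and Cst3), where 8.26% of all genes were. In spleen 3 of 6 were (Tyrobp, Cd68 and Fcer1g), where 7.17% of all genes were. Between Id3- eTR and Id3+ eTR edgeR called 0 of 6 in either tissue, with 0 and 1 at an unadjusted p under 0.05. Of all genes it called 2.62% in lymph node and 3.28% in spleen, so 0 of 6 cannot be told from the share over all genes. The list summed to 331 to 365 CPM in Id3- eTR, 216 to 446 CPM in Id3+ eTR and 141 to 167 CPM in Id3+ cTR of lymph node. In spleen it summed to 253 to 297 CPM in Id3- eTR, 153 to 260 CPM in Id3+ eTR and 137 to 264 CPM in Id3+ cTR. Of the defining genes, Csf1r and Itgax had 0 counts in lymph node Id3- eTR, and no gene of the list was at 0 in spleen Id3- eTR. The part of these cells in the Ccr1 and Ccr2 results was not tested.

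The 7 markers of eosinophils, basophils and mast cells, which carry Ccr3, summed to at most 9.36 CPM in any library. In Id3- eTR they summed to 1.46 to 2.14 CPM in lymph node and 0.719 to 3.48 CPM in spleen, and Prg2, Siglecf and Mcpt8 had 0 counts in every group.

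Cxcr3, the type 1 receptor for Cxcl9, Cxcl10 and Cxcl11, was intermediate in Id3+ eTR in both tissues. It stood at 322, 244 and 296 CPM in lymph node Id3- eTR and 445, 435 and 425 CPM in spleen Id3- eTR. In Id3+ eTR it stood at 138, 110.1 and 135 CPM in lymph node and 169, 173 and 137 CPM in spleen. Id3+ cTR held 9.09, 4.30 and 0 CPM in lymph node and 3.25, 6.79 and 4.32 CPM in spleen. The 3 populations did not overlap in either tissue, and the spleen Id3- libraries lay above the lymph node ones.

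The log2 difference of Id3- eTR from Id3+ cTR in Cxcr3 was 6.02 ± 0.40 in lymph node (adjusted p = 3.65e-08) and 6.41 ± 0.42 in spleen (adjusted p = 2.41e-08). Id3- eTR exceeded Id3+ eTR by 1.17 ± 0.28 in lymph node (adjusted p = 0.0358) and by 1.45 ± 0.28 in spleen (adjusted p = 0.00703). The lymph node call was lost when any 1 of its 6 libraries was left out (adjusted p 0.0568 to 0.149), and on the authors' normalized values both calls were lost (0.377 in lymph node, 0.182 in spleen). Without lymph node Id3+ cTR of mouse 84, the Cxcr3 differences from that group were 6.99 for Id3- eTR and 5.83 for Id3+ eTR, against 6.02 and 4.85 with it.

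Cxcr6, the receptor for Cxcl16 that marks T cells lodged in liver, lung and other tissues, was likewise concentrated in Id3- eTR. It stood at 411, 431 and 462 CPM in lymph node Id3- eTR and 205, 306 and 312 CPM in spleen Id3- eTR. Id3+ eTR held 19.1, 6.96 and 14.9 CPM in lymph node and 4.36, 0 and 21.4 CPM (13, 0 and 55 counts) in spleen. Id3+ cTR held 16, 2 and 1 counts in lymph node and 10, 10 and 1 in spleen. Every Id3- library lay far above every Id3+ library, while Id3+ eTR overlapped Id3+ cTR in spleen.

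The log2 difference of Id3- eTR from Id3+ eTR in Cxcr6 was 5.01 ± 0.63 in lymph node (adjusted p = 0.000156) and 5.0 ± 0.65 in spleen (adjusted p = 0.00023), the spleen value being 6.82 without Id3+ eTR of mouse 87. From Id3+ cTR it was 7.56 ± 0.77 in lymph node (adjusted p = 3.52e-06), or 9.60 without Id3+ cTR of mouse 84, and 6.19 ± 0.76 in spleen (adjusted p = 2.90e-05). Id3+ eTR was not called against Id3+ cTR, at 2.55 ± 0.91 in lymph node (adjusted p = 0.132) and 1.19 ± 0.96 in spleen (adjusted p = 0.54). Cxcr6 overlaps Fyco1 on the opposite strand and the library kit does not mark strand, so reads of the shared bases cannot be assigned. Fyco1 was not called in any of these comparisons.

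Ccr4 and Ccr8 are receptors of TR in skin and of type 2 responses, Ccr4 binding Ccl17 and Ccl22 and Ccr8 binding Ccl1 and, in mouse, Ccl8. Ccr4 stood at 159, 139.6 and 102 CPM in lymph node Id3- eTR and 137, 117 and 126 CPM in spleen Id3- eTR. Its Id3+ eTR libraries held 41.1, 29.0 and 35.3 CPM in lymph node and 35.5, 19.9 and 22.2 CPM in spleen. Id3+ cTR held 2, 1 and 16 counts of Ccr4 in lymph node and 1, 0 and 2 in spleen. The 3 populations did not overlap, and Id3+ eTR held the intermediate level.

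Id3- eTR exceeded Id3+ eTR in Ccr4 by 1.93 ± 0.41 in lymph node (log2, adjusted p = 0.0152) and 2.29 ± 0.42 in spleen (adjusted p = 0.00432). The lymph node call was lost when Id3- eTR of mouse 84 (0.0776) or mouse 86 (0.0549), or Id3+ eTR of mouse 86 (0.0847) or mouse 87 (0.0745), was left out. From lymph node Id3+ cTR the difference was 5.86 ± 0.54 for Id3- eTR (adjusted p = 1.21e-06) and 3.94 ± 0.54 for Id3+ eTR (adjusted p = 0.000214). Without Id3+ cTR of mouse 87, which held most of that group's counts, these Ccr4 values were 7.85 and 5.93. In spleen the CPM ratio to Id3+ cTR was 241 for Id3- eTR (82.1 to 1170, adjusted p = 1.05e-06) and 49.9 for Id3+ eTR (16.9 to 244, adjusted p = 0.000469). These ratios were 134 and 27.9 without Id3+ cTR of mouse 86 and 515 and 107 without that of mouse 87.

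Ccr8 was already near its Id3- level in lymph node Id3+ eTR. It stood at 234, 221 and 216 CPM in lymph node Id3- eTR and 232.0, 101 and 209.9 CPM in spleen Id3- eTR. Id3+ eTR held 187, 173 and 174 CPM in lymph node and 95.8, 34.2 and 82.0 CPM in spleen, and Id3+ cTR 21.6, 18.2 and 29.1 CPM in lymph node and 20.2, 5.99 and 25.3 CPM in spleen. Mouse 86 was the lowest of the 3 mice in all 3 spleen populations, and within each tissue the populations did not overlap.

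Against Id3+ cTR, Ccr8 differed by 3.28 ± 0.41 for Id3- eTR (log2, adjusted p = 2.91e-05) and 2.95 ± 0.41 for Id3+ eTR (adjusted p = 0.000214) in lymph node. In spleen it differed by 3.48 ± 0.44 for Id3- eTR (adjusted p = 4.07e-05) and 2.12 ± 0.44 for Id3+ eTR (adjusted p = 0.0107), the last call lost with limma-voom (0.0986), in a fit of the 2 groups alone (0.137) and without the 3 spleen libraries (0.0607). The difference of Id3- from Id3+ eTR in Ccr8 was not called, at 0.33 ± 0.36 in lymph node (adjusted p = 0.807) and 1.36 ± 0.37 in spleen (adjusted p = 0.057). With mouse as a replicate block the spleen value was 1.37 and was called (adjusted p = 0.0167), as it was with DESeq2 (0.0078), with limma-voom (0.0235), without the 3 spleen libraries (0.0265), and without Id3- eTR of mouse 86 (0.0226) or Id3+ eTR of mouse 84 (0.0413).

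ILC2 are innate lymphocytes of type 2 tissue responses that carry Ccr8 and Ccr4. The sum of their markers ranked the populations as these receptors did, highest in Id3- eTR and lowest in Id3+ cTR. Of the 6 genes listed, 4 were tested (Klrg1, Il1rl1, Areg and Gata3). In each tissue 4 of 4 were called higher in Id3- eTR than in Id3+ cTR, where 8.26% of all genes were in lymph node and 7.17% in spleen. Against Id3+ eTR, 2 of 4 were called higher in lymph node Id3- eTR (1.45% of all genes) and 3 of 4 in spleen (1.53%). In Id3+ eTR, Ccr8 averaged 79.5% of its Id3- eTR level in lymph node and 38.0% in spleen, and Ccr4 27.1% and 20.2%. The marker sum of Id3- eTR was higher in spleen than in lymph node. Between these tissues edgeR called 0 of the 4 tested genes (0.305% of all genes), and neither Ccr8 nor Ccr4. The 6 genes, of which TR also express Gata3, Il1rl1, Klrg1 and Areg, summed to 553 to 668 CPM in Id3- eTR, 161 to 216 CPM in Id3+ eTR and 79.2 to 112 CPM in Id3+ cTR of lymph node. In spleen they summed to 711 to 745 CPM in Id3- eTR, 166 to 203 CPM in Id3+ eTR and 98.0 to 119 CPM in Id3+ cTR. Il5 had 0 counts in every group, and Il13 had 5 counts in lymph node Id3+ eTR, 1 in spleen Id3- eTR and 0 elsewhere. The part of such cells in the Ccr8 and Ccr4 results was not tested.

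Ccr6 and Gpr15 guide T cells to mucosa, Ccr6 through Ccl20 and Gpr15 to the large intestine. Ccr6 stood at 287, 264 and 185 CPM in lymph node Id3- eTR and 149.7, 223 and 107 CPM in spleen Id3- eTR. Id3+ eTR held 225, 193 and 177 CPM of Ccr6 in lymph node and 59.0, 54.1 and 82.0 CPM in spleen, and Id3+ cTR 24.6, 10.3 and 15.3 CPM in lymph node and 26.0, 24.0 and 17.9 CPM in spleen. Both eTR populations overlapped in lymph node, whereas all 3 populations were apart in spleen, and every lymph node Id3+ eTR library lay above every spleen one.

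Against Id3+ cTR, Ccr6 differed by 3.88 ± 0.32 for Id3- eTR (log2, adjusted p = 3.44e-07) and 3.58 ± 0.32 for Id3+ eTR (adjusted p = 2.21e-06) in lymph node. In spleen it differed by 2.81 ± 0.31 for Id3- eTR (adjusted p = 1.11e-05) and 1.52 ± 0.32 for Id3+ eTR (adjusted p = 0.011). Id3- eTR exceeded Id3+ eTR in Ccr6 by 1.29 ± 0.28 in spleen (adjusted p = 0.0144), against a value of 0.31 ± 0.27 in lymph node that was not called (adjusted p = 0.731). The spleen difference of Id3+ eTR from Id3+ cTR lost its call without Id3+ cTR of mouse 87 (0.0681), with limma-voom (0.142), in a fit of the 2 groups alone (0.0515) and without the 3 spleen libraries (0.323). That of Id3- from Id3+ eTR lost it when Id3- eTR of mouse 86 (0.0893) or Id3+ eTR of mouse 84 (0.0525) or mouse 86 (0.0606) was left out, in a fit of the 2 groups alone (0.0934) and without the 3 spleen libraries (0.0853).

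Gpr15 stood at 94.7, 137 and 119 CPM in lymph node Id3- eTR and 84.2, 139 and 107 CPM in spleen Id3- eTR. Id3+ eTR held 65.5, 97.0 and 97.6 CPM in lymph node and 39.9, 33.8 and 49.0 CPM in spleen. Id3+ cTR held 41, 4 and 7 counts of Gpr15 in lymph node (15.5, 1.32 and 2.49 CPM) and 5.20, 5.99 and 0 CPM in spleen. Its eTR libraries overlapped in lymph node and not in spleen, and both eTR populations lay above Id3+ cTR. From lymph node Id3+ cTR the log2 difference was 4.21 ± 0.61 for Id3- eTR (adjusted p = 0.000128) and 3.78 ± 0.60 for Id3+ eTR (adjusted p = 0.000844), or 5.92 and 5.50 without Id3+ cTR of mouse 84. From spleen Id3+ cTR it was 4.78 ± 0.67 for Id3- eTR (adjusted p = 0.000112) and 3.36 ± 0.67 for Id3+ eTR (adjusted p = 0.00818), or 5.42 and 4.0 without Id3+ cTR of mouse 86. The spleen Id3+ eTR call was lost with limma-voom (0.0623), in a fit of the 2 groups alone (0.0519) and without the 3 spleen libraries (0.293). The difference of Id3- from Id3+ eTR in Gpr15 was not called, at 0.43 ± 0.49 in lymph node (adjusted p = 0.824) and 1.42 ± 0.51 in spleen (adjusted p = 0.155), although limma-voom (0.0187) and a fit of the 2 groups alone (0.0395) called the spleen value. Gpr15 overlaps Cpox on the opposite strand, and Cpox was not called in any population comparison.

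As a share of each mouse's own Id3- eTR level, the members formed a graded series in Id3+ eTR. In lymph node Id3+ eTR, Ccr6 reached 82.4% ± 11.7, Ccr8 79.5% ± 1.07 and Gpr15 73.8% ± 6.91 of the Id3- eTR level (SD, n = 3). Cxcr3 reached 44.4% ± 1.47 and Ccr4 27.1% ± 6.95. Cxcr6 reached 3.16% ± 1.52, Ccr2 0.597% ± 0.504 and Ccr1 0.385% ± 0.668, with Ccr3 at 0 counts. Ccr6, Ccr8 and Gpr15 stood at the top of the series and Cxcr6 with the inflammatory receptors at its foot.

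In spleen Id3+ eTR the shares were lower for Ccr6, at 46.8% ± 26.9, Gpr15, at 39.2% ± 12.9, and Ccr8, at 38.0% ± 3.87 of the Id3- eTR level. Cxcr3 reached 36.6% ± 3.88 and Ccr4 20.2% ± 5.03. Ccr3 reached 9.34% ± 2.68, Cxcr6 2.99% ± 3.51 and Ccr2 0.123% ± 0.0244, with Ccr1 at 0 counts. Ccr6 varied most between mice, at 39.4%, 24.3% and 76.6%.

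**Figure D2:**
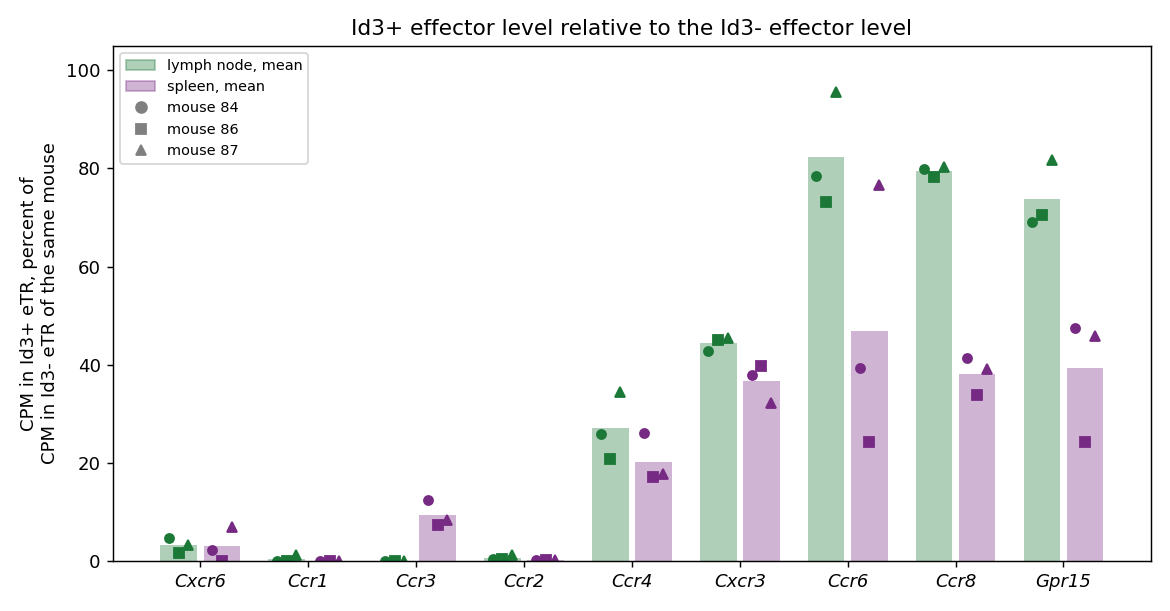
Level of each receptor in Id3+ eTR as a percent of the Id3- eTR level of the same mouse and tissue, 1 point per mouse with bars at the mean, for lymph node and spleen. Ccr6, Ccr8 and Gpr15 average 82.4%, 79.5% and 73.8% in lymph node and 46.8%, 38.0% and 39.2% in spleen, while the highest mean among Cxcr6, Ccr2 and Ccr1 is 3.16%.

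Between lymph node and spleen, Ccr6 in Id3+ eTR was the 1 receptor difference that edgeR called. In Id3- eTR it called 0 of 9 members (0.305% of all genes), with 3 at an unadjusted p under 0.05, while limma-voom called 2 and DESeq2 0. These 3 were Ccr6 at 0.62 ± 0.27 (log2 of lymph node over spleen, adjusted p = 0.559), Ccr2 at 0.52 ± 0.21 (0.511; limma-voom 0.0275) and Cxcr3 at -0.60 ± 0.28 (0.615; limma-voom 0.0472). The others ran between 0.08 ± 0.39 for Ccr4 and 0.76 ± 0.53 for Ccr3.

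In Id3+ eTR, Ccr6 was higher in lymph node by 1.61 ± 0.28 (log2, adjusted p = 0.0261), the 1 member of 9 called, where 0.289% of all genes were. The call was lost without any of 5 of the 6 libraries (adjusted p 0.0528 to 0.139), in a fit of the 2 groups alone (0.0902) and without the 3 spleen libraries (0.129). Ccr8 stood at 1.32 ± 0.37 (adjusted p = 0.167; DESeq2 0.0305) and Gpr15 at 1.09 ± 0.51 (0.416). Ccr2 was 8.12 times as high in lymph node (2.45 to 42.2, adjusted p = 0.13), at 23 against 3 counts, and 3.42 times without the lymph node library of mouse 87, which held 17 of the 23. Ccr3 was at least 14.8-fold lower in lymph node (adjusted p = 0.0639; DESeq2 0.000428), at 0 against 47 counts. In Id3+ cTR edgeR called 0 of 9 (0.00804% of all genes), with 1 at an unadjusted p under 0.05 (Ccr3), and limma-voom and DESeq2 called 0.

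Whether a population difference itself differed between the tissues was tested by interaction. EdgeR called 0 of 9 members in each of the 3 interactions, where it called 0.0241% of all genes for Id3- eTR against Id3+ cTR and 0 for the other pairs. At an unadjusted p under 0.05 there were 2, 2 and 3 members, for Id3- eTR against Id3+ cTR, Id3+ eTR against Id3+ cTR and Id3- eTR against Id3+ eTR. The interaction of Id3- with Id3+ eTR (lymph node minus spleen) was -0.98 ± 0.39 for Ccr6 (adjusted p = 0.723), -1.02 ± 0.51 for Ccr8 (0.817) and -0.99 ± 0.71 for Gpr15 (0.892). For Ccr3 it had an adjusted p of 0.181, and DESeq2 called it (0.000548), the 1 interaction of a member called by either DESeq2 or limma-voom. The lower spleen shares of Ccr6, Ccr8 and Gpr15 in Id3+ eTR were not shown by this test to differ from the lymph node ones.

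**Figure D3:**
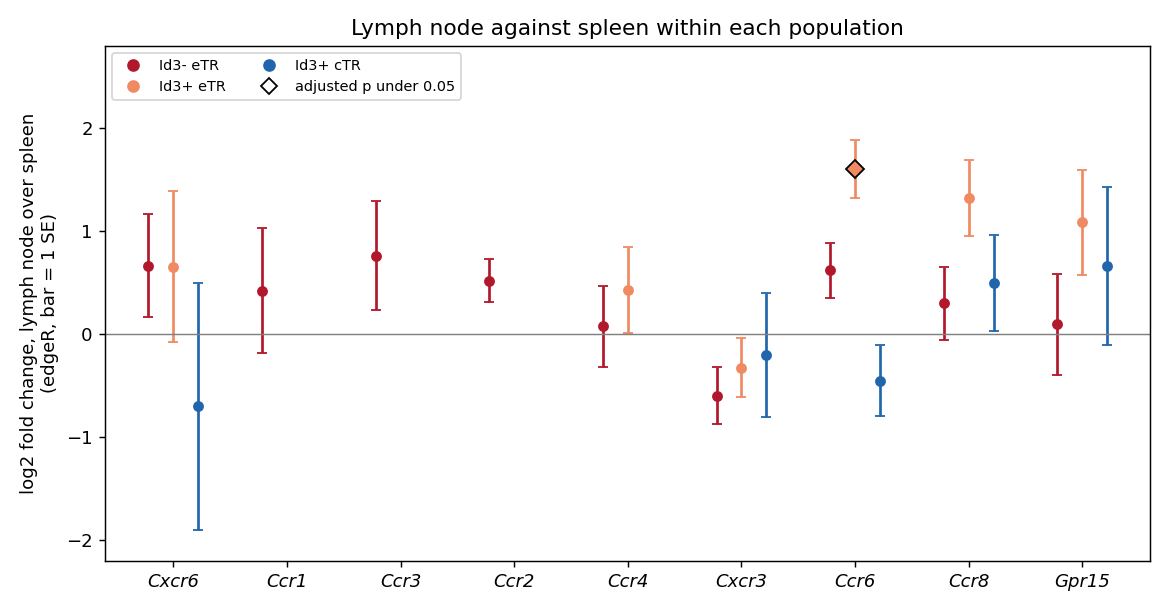
Log2 difference of lymph node over spleen for each receptor in Id3- eTR, Id3+ eTR and Id3+ cTR, with points for the fitted value and bars for 1 SE, left out where either group held 3 or fewer counts. Among the values shown, Ccr6 in Id3+ eTR, at 1.61 ± 0.28, is the only one called.

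Per kilobase of merged exon, a rough scale for comparing genes, Cxcr6 led in lymph node Id3- eTR at 225 CPM per kb. The length is that of all annotated exons, which need not be the transcript expressed. It is 6760 bases for Ccr2 and at most 3272 for the other members, and before scaling Ccr2 had the highest mean, 448 CPM. Ccr8 at 190 and Cxcr3 at 166 CPM per kb followed and overlapped each other. Ccr6 at 106, Gpr15 at 71.5 and Ccr2 at 66.3 CPM per kb came next, each overlapping its neighbour, then Ccr4 at 43.2 and Ccr3 at 32.3, and Ccr1 last at 9.76. In spleen Id3- eTR the order was led by Cxcr3 at 251 CPM per kb, ahead of Ccr8 at 154 and Cxcr6 at 142, which overlapped, with Ccr1 last at 7.31.

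Id3+ eTR ranked their receptors otherwise. In lymph node Id3+ eTR, Ccr8 led at 151 CPM per kb, followed by Ccr6 at 85.5 and Cxcr3 at 73.6, which overlapped, and Gpr15 at 52.9. In spleen Id3+ eTR, Cxcr3 at 92.2 and Ccr8 at 60.1 CPM per kb overlapped at the top. Cxcr6, the leader of lymph node Id3- eTR, stood at 7.07 CPM per kb in lymph node Id3+ eTR and 4.44 in spleen Id3+ eTR. In lymph node Id3+ cTR, Ccr8 led at 19.5 CPM per kb, while in spleen Id3+ cTR Ccr8 at 14.6 and Ccr6 at 9.75 CPM per kb overlapped at the top.

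The members Cxcr6, Ccr1, Ccr3 and Ccr2 lie close together on chromosome 9, where the annotation gives the order Ccr9, Lztfl1, Fyco1, Cxcr6, Xcr1, Ccr1, Ccr1l1, Ccr3 and Ccr2. Cxcr6, Ccr1, Ccr3 and Ccr2, the members with the lowest shares in Id3+ eTR, stand within this run.

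Of the other genes in this order, Lztfl1 alone was called between populations, and in spleen alone. Xcr1, a dendritic cell receptor that lies among them, averaged 8.86 ± 1.59 CPM in Id3- eTR, 1.35 ± 1.58 CPM in Id3+ eTR and 0.599 ± 0.234 CPM in Id3+ cTR of lymph node and was not called. Fyco1, a lysosome transport adaptor, stood at 110 ± 10.1 CPM in Id3- eTR, 104 ± 16.5 CPM in Id3+ eTR and 73.4 ± 7.55 CPM in Id3+ cTR of lymph node. Ccr1l1, a copy of Ccr1, had 0 counts in all libraries. Lztfl1 was higher in Id3- eTR of spleen, by 1.99 ± 0.35 over Id3+ eTR (log2, adjusted p = 0.00314) and 1.69 ± 0.35 over Id3+ cTR (0.00356). Neighbouring receptor genes here are paralogs, so how the authors' counting split shared reads bears on these levels.

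**Figure D4:**
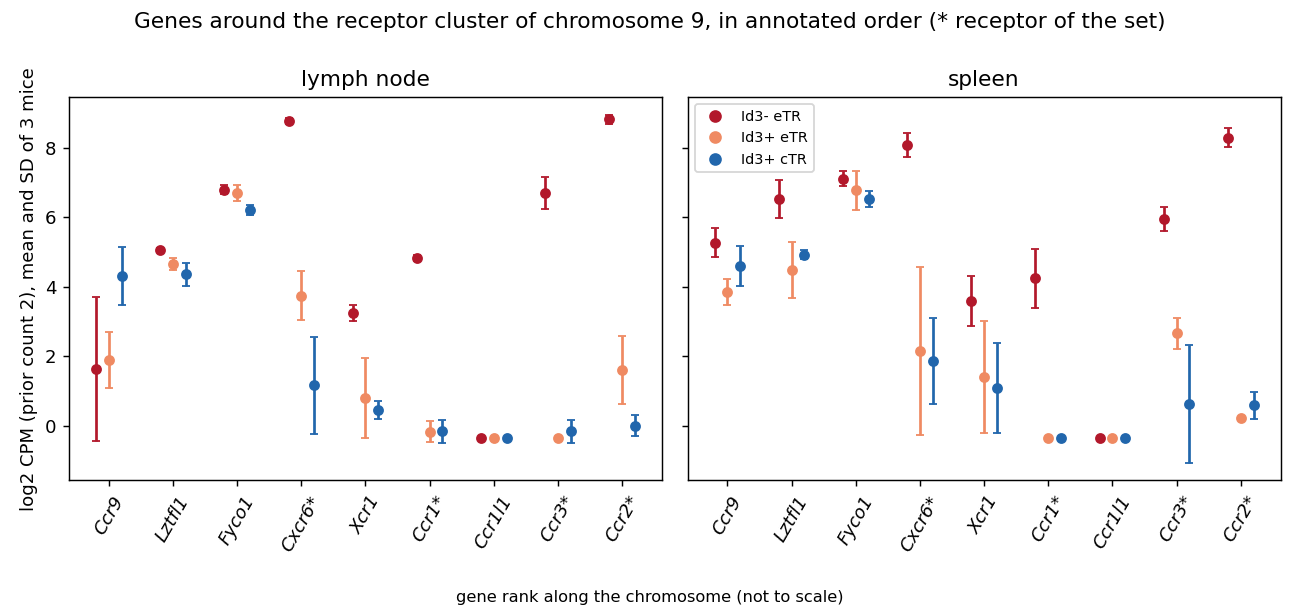
Mean log2 CPM (prior count 2) with SD (n = 3 mice) of the chromosome 9 genes in annotation order, by population, for lymph node and spleen. Cxcr6, Ccr1, Ccr3 and Ccr2 stand far higher in Id3- eTR than in either Id3+ population, while Fyco1 stands at 110, 104 and 73.4 CPM in lymph node Id3- eTR, Id3+ eTR and Id3+ cTR.

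Genes whose profiles lay nearest to each member were found by the root mean square difference of centred log2 CPM over the 6 group means, among 10709 genes, as a description. Nearest to Ccr2 and Cxcr6 was Il10, an anti-inflammatory cytokine of effector TR, at 1.04 from Ccr2 and 0.72 from Cxcr6. Il10 stood at 242 ± 31.3 CPM in Id3- eTR, 2.70 ± 1.82 CPM in Id3+ eTR and 0.615 ± 0.796 CPM in Id3+ cTR of lymph node. Ccr1 was nearest to Ccl20 (0.246), the ligand of Ccr6, and Ccr3 to Fgl2 (0.725), a secreted suppressive factor of TR. Ccr1 and Ccl20 both had few or 0 counts in every Id3+ group, where the prior count of 2 largely sets the log2 value.

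The stepped receptors had other neighbours. Ccr4 was nearest to S100a4 (0.233), a calcium-binding protein of motile cells, at 185 ± 7.73 CPM in Id3- eTR, 39.0 ± 13.2 CPM in Id3+ eTR and 2.60 ± 0.266 CPM in Id3+ cTR of lymph node. Cxcr3 was nearest to Nav2 (0.313), followed by Tigit (0.396), an inhibitory receptor. Ccr8 was nearest to Nfil3 (0.213), a basic leucine zipper factor, and Ccr6 to Rasd1 (0.232), while Cxcl10 was among those near Gpr15 (0.213). Rasd1 averaged at most 8.05 CPM in any group, with 0 in lymph node and 0.411 CPM in spleen Id3+ cTR. The prior count therefore bears on its match to Ccr6. Among the members themselves Ccr6 and Ccr8 were closest (0.326) and Ccr2 and Ccr6 farthest apart (2.89).

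Among 15 other chemokine receptors, 8 could be tested, and Ccr7, which holds T cells in the lymphoid circuit, ran opposite to the members. Ccr7 stood at 133 ± 27.5 CPM in Id3- eTR, 444 ± 33.2 CPM in Id3+ eTR and 588 ± 38.7 CPM in Id3+ cTR of lymph node, and at 95.8 ± 23.7, 386 ± 31.1 and 610 ± 45.7 CPM in the same populations of spleen. It was lower in Id3- eTR than in Id3+ cTR by a log2 difference of -2.15 ± 0.16 in lymph node (adjusted p = 1.21e-07) and -2.68 ± 0.16 in spleen (1.23e-08). Ccr10 was at least 90.9-fold higher in Id3- eTR than in Id3+ cTR of lymph node, Ccrl2 was higher by 2.11 ± 0.33 and Cxcr4 by 0.99 ± 0.29. In spleen Ccrl2 was higher by 2.60 ± 0.35, and Ccr7 alone was lower in each tissue. Of all genes, 8.26% were higher and 4.68% lower in lymph node, and 7.17% and 5.09% in spleen. Id3+ eTR exceeded Id3+ cTR of lymph node in Cxcr5, the receptor of B cell follicles, by 1.77 ± 0.48 and in Cxcr4 by 1.07 ± 0.29, with none lower, and in spleen Ccr7 alone was called, lower by a difference of -0.66 ± 0.15. Id3- eTR against Id3+ eTR gave Ccr7 lower in both tissues and Ccrl2 higher in spleen.

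Ligands of the members were tested for 7 of 19 genes. In Id3- eTR of lymph node 4 were higher than in Id3+ cTR: Ccl5 by 4.24 ± 0.64, Cxcl10 by 4.27 ± 0.65, Ccl8 by 3.62 ± 0.81 and Ccl20 at least 64.7-fold. In spleen 3 were, Ccl5 by 4.73 ± 0.64, Cxcl10 by 5.22 ± 0.79 and Ccl20 at least 24.3-fold, and no ligand was lower in either tissue. Of all genes, 8.26% were higher and 4.68% lower in lymph node, and 7.17% and 5.09% in spleen. The 0 of 7 lower cannot be told from those shares. Id3+ eTR exceeded Id3+ cTR in Ccl5 and Cxcl10 in lymph node (4.20% of all genes) and in Cxcl10 in spleen (2.93%). Id3- eTR exceeded Id3+ eTR in Ccl20, 57.7-fold in lymph node (19.4 to 282) and at least 34.3-fold in spleen, and in spleen also in Ccl5 by 3.22 ± 0.56. Ccl8, a ligand of Ccr8, was at least 57.1-fold higher in lymph node than in spleen Id3- eTR (adjusted p = 0.0159), at 178 against 0 counts.

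Of 24 genes of receptor signalling and desensitisation, 23 were tested and 4 were higher in lymph node Id3- eTR than in Id3+ cTR, led by the G protein subunit Gng2 (1.84 ± 0.22) and Rgs16 (2.0 ± 0.29), which shuts off G protein signals, with Rgs2 (0.51 ± 0.11) and Rgs1 (0.49 ± 0.14). The phosphoinositide kinase subunit Pik3r5 was lower (-1.27 ± 0.32). Of all genes, 8.26% were higher and 4.68% lower there, so 1 of 23 lower is near that share. In spleen 6 were higher and 3 lower, where 7.17% and 5.09% of all genes were. Id3+ eTR against Id3+ cTR gave 3 higher and 2 lower in lymph node and 2 higher and 0 lower in spleen. Of all genes, 4.20% were higher and 1.46% lower in lymph node, and 2.93% and 1.39% in spleen. Between lymph node and spleen Id3+ eTR, where Ccr6 was called, Rgs2 (0.96 ± 0.11) and Rgs1 (0.69 ± 0.14) were higher in lymph node and Pik3r5 (-1.67 ± 0.33) was lower. Of all genes, 0.289% were called there.

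Of 18 transcription factors linked to receptor genes, all tested, 10 were higher and 4 lower in lymph node Id3- eTR than in Id3+ cTR, and 10 higher and 5 lower in spleen. Of all genes, 8.26% were higher and 4.68% lower in lymph node, and 7.17% and 5.09% in spleen. In lymph node Maf (4.74 ± 0.26), Prdm1 (4.29 ± 0.36), Rora (3.40 ± 0.22) and Batf (1.06 ± 0.11), which act in effector T cells, were higher. Bach2 (-3.16 ± 0.18), Tcf7 (-1.52 ± 0.15), Lef1 (-1.33 ± 0.09) and Klf2 (-1.18 ± 0.15), which act in quiescent and recirculating T cells, were lower. Id3- eTR against Id3+ eTR gave 5 higher and 3 lower in lymph node, with Prdm1 at 4.69 ± 0.38, Maf at 1.67 ± 0.22 and Bach2 at -1.93 ± 0.18, and 6 higher and 4 lower in spleen. Id3+ eTR against Id3+ cTR gave 5 higher and 3 lower in each tissue. Between Id3- and Id3+ eTR, 1.45% of all genes were higher and 1.17% lower in lymph node, and 1.53% and 1.75% in spleen. For Id3+ eTR against Id3+ cTR these shares were 4.20% and 1.46% in lymph node and 2.93% and 1.39% in spleen.

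Markers of further cell types were low beside the TR genes. The CD8 T and NK cell list, whose cells carry Cxcr3 and Cxcr6, summed to 185 to 229 CPM in Id3- eTR, 157 to 253 CPM in Id3+ eTR and 86.3 to 133 CPM in Id3+ cTR of lymph node. In spleen it summed to 184 to 215 CPM in Id3- eTR, 110 to 145 CPM in Id3+ eTR and 87.9 to 175 CPM in Id3+ cTR, and Ncr1 had 0 counts in every group. Nkg7 of this list was called higher in Id3- eTR than in Id3+ cTR. Its log2 difference was 2.68 ± 0.35 in lymph node and 1.83 ± 0.34 in spleen. Nkg7 was also higher in lymph node Id3+ eTR than in Id3+ cTR (2.55 ± 0.35). In spleen Id3- eTR, Nkg7 (1.66 ± 0.33) and Gzma (4.91 ± 1.30) were higher than in Id3+ eTR. Of the 6 genes of the list tested, 0 were called lower in any population comparison, where 1.17% to 5.09% of all genes were. That count cannot be told from those shares. Gamma delta and NKT cell markers, whose cells carry Ccr6 and Cxcr6, summed to at most 27.3 CPM in any library. In lymph node they summed to 0 to 6.42 CPM in Id3- eTR and 13.5 to 27.3 CPM in Id3+ cTR. B cell markers summed to 55.9 to 223 CPM over all libraries. Against Id3+ cTR, Tcrg-C1 was called lower in lymph node Id3- eTR (-3.14 ± 0.91), where 4.68% of all genes were. In spleen Cd79a (-3.01 ± 0.81, libraries overlapping) and the erythroid gene Alas2 (-3.46 ± 0.89) were, where 5.09% of all genes were. Erythroid and platelet markers summed to 1.14 to 9.50 CPM in lymph node and 10.1 to 202 CPM in spleen. The part of these other cells in the receptor results was not tested.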

How the data were processed

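The authors deposited whole-number counts per gene for 18 libraries and a second table of normalized signal. Of the deposited signal values, 99.986% were the gene's count multiplied by a single library factor, to within 0.1%. Per the submitters' processing notes, HTSeq 0.4.1, TopHat, Bowtie, SAMtools, Picard and FastQC were among the tools; the build used for alignment is not given here. Symbols were matched for 32919 of 37991 identifiers, and rows without one held 0.891% of counts. Counts were filtered with filterByExpr (minimum count 10, 12445 genes left), scaled by TMM and fitted with edgeR 4.0.16 in R 4.3.3 (robust quasi-likelihood F test, two-sided, 6 groups, 12 residual degrees of freedom, Benjamini-Hochberg over all genes). CPM use TMM-scaled totals. The fit was tested on simulated data, with changes planted only in genes with an expected count of at least 10. That test was not set for groups with 0 to 3 counts, as several members have in Id3+ cells. Alternatives used limma-voom (limma 3.58.1), DESeq2 1.42.0, other scalings and filters, the deposited signal, the groups of a contrast alone, mouse as a replicate block, and libraries left out. Mice give the pairing, since each gave all 6 groups, and deviations of the same mouse correlated across groups at a mean of 0.02 (-0.0309 to 0.0798). With 0 counts in a group a fold is a bound at 3 counts over the group, and with 1 to 3 counts a ratio of CPM with its 95% counting interval. The text names all 9 members and, from each list, up to 4 called genes in each direction per contrast by smallest adjusted p, with the rest as counts. Chromosome neighbours and nearest profiles were named by position and rank. Members and lists were chosen with earlier results of these data known. Some listed or neighbouring genes are not reported here.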

Additional observations from a re-analysis of the deposited data

How the results depend on the processing

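Over all members, contrasts and settings, 1716 of 1768 values kept their side of the threshold, 37 lost a call and 15 gained one. Direction was compared for called values only, of which 0 reversed. The 9 calls of Id3- eTR against Id3+ cTR in each tissue held throughout. The 5 members called in spleen Id3+ eTR against Id3+ cTR became 2 by limma-voom, 2 when fitted without the other groups, where 7 were tested, and 2 without the 3 spleen libraries. For lymph node over spleen in Id3+ eTR the 1 call became 2 with no filter, 3 with DESeq2, 0 when fitted without the other groups (6 members tested), 0 without the 3 spleen libraries and 0 to 1 with single libraries left out. In Id3- eTR the 0 calls became 2 with limma-voom, and the interaction of Id3- with Id3+ eTR went to 1 with DESeq2. The cause of these changes was not tested, apart from the fewer members and samples in the restricted fits. Over all genes, 538 calls in spleen Id3+ eTR against Id3+ cTR became 245, 145 and 69 under the same 3 settings. For Id3+ eTR between tissues 36 became 62, 200, 0 and 9, and 5 to 16 with single libraries left out. Id3- eTR between tissues went to 71 with limma-voom in place of 38, and the interaction to 37 with DESeq2 in place of 0. The paired fit with mouse as a replicate block changed no member call but that of Ccr8 in spleen Id3- against Id3+ eTR (log2 1.37, adjusted p = 0.0167). Among called values given as a fitted difference, limma-voom moved 11 by more than 1.5-fold, all upward, by 0.674 to 1.56 log2. Bounds and counted ratios were left out of this count. Of these, Ccr2 in lymph node Id3+ eTR against Id3+ cTR fell from a fitted log2 value of 3.42 to 2.76. Depth limits Ccr1, Ccr2, Ccr3 and Ccr4 in Id3+ cells, where 0 to 3 counts over a group leave folds as bounds or wide ratios.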
